A study of Arabidopsis thaliana with 8 samples.

Results

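Of 43603 probes on the array, 153 (0.351%) gave a lower signal in Arabidopsis thaliana seedlings of the ANAC096 line than in seedlings of the empty-vector line, with abscisic acid and without it, while their signal differed little with abscisic acid in either line on the scale that chose them. The members were chosen by their measured values on all 8 arrays of the study. Levels are log2 processed signals minus the 75th percentile of the same array, so a level of 0 is the 75th percentile and a difference of -1 is a 2-fold fall. A member had to be lower by 1 or more in ANAC096 against Control and in ANAC096+ABA against ABA. It also had to differ by at most 0.75, in either direction, in ABA against Control and in ANAC096+ABA against ANAC096, and to have a mean Control level of at least -6. The 4 differences below are therefore a description of what was chosen, and none of them is tested for the members.

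All groups were 12-day-old Col-0 seedlings, stably transformed and kept in liquid MS medium at 23 °C under 16 h of light and 8 h of dark. The ANAC096 group carried pTA-ANAC096 and received 30 µM dexamethasone (Dex) for 1 h. The Control group carried the empty pTA vector and received the same. The ANAC096+ABA group carried pTA-ANAC096 and received 2 µM ABA during the last 30 min of the 1 h with 30 µM Dex. The ABA group carried the empty pTA vector and received that combination. Every group had 2 arrays of whole-seedling total RNA, every array shared the Dex treatment, and no array was taken without Dex, so a difference between the lines that preceded Dex cannot be told apart from one that followed it. The number of independent transformants behind each line is not given in the sources used here. In whole seedlings, fewer cells of a type and less RNA per cell cannot be told apart.

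NAC proteins are a large family of plant transcription factors that bind DNA through a conserved domain at their amino terminus, and many take part in development, senescence and stress. ABA is the hormone of drought and osmotic stress: receptor binding releases SnRK2 kinases, which activate bZIP factors that bind ABA-responsive promoter elements. The series' title places ANAC096 beside such bZIP factors in dehydration and osmotic stress. In pTA vectors Dex generally switches on the transgene through a steroid-activated transcription factor, which both lines carry.

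The files give each probe an array maker's identifier and no gene, and the reference gene table used here held 0 of these identifiers. No member is therefore given a gene, the number of genes behind the 153 probes is unknown, and the level of ANAC096 itself was not analysed here, nor were tissue markers. No probe sequence was used. Only the pair of members with the furthest falls that were well above background on all 8 arrays is named.

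The arrays had 32963 to 34960 of 43603 probes well above background, and 0 saturated spots. All 8 lay on 1 slide, with both ABA-treated groups in slide row 2 and the other groups in row 1. The ANAC096 line lay in slide columns 3 and 4 and the empty-vector line in columns 1 and 2, so slide column and line cannot be told apart, nor can slide row and ABA.

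On every array of the ANAC096 line the members sat lower than on any empty-vector array. Their median level was -3.23 and -3.26 on the ANAC096 arrays, against -1.44 and -1.42 on the Control arrays. With ABA it was -3.07 and -3.20 on the ANAC096+ABA arrays, against -1.64 and -1.68 on the ABA arrays. The quartiles moved with the median: the lower quartile was -5.40 on both ANAC096 arrays, against -3.63 and -3.62 on the Control arrays. Taken probe by probe, the highest of the 4 ANAC096-line arrays lay below the lowest of the 4 empty-vector arrays for 153 of 153 members, with a gap of 0.33 to 5.17 and a median gap of 1.09. Over all 34714 tested probes this order held for 17.1%. The rule fixes most of this separation, and nothing is read from the count.

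Members covered a wide range of abundance. Mean levels ran from -9.45 to 3.15 in ANAC096, against -5.97 to 4.34 in Control, the lower end of Control being set by the rule. In Control, 44 members lay above the 75th percentile of their array and 34 lay below -4. The spread between replicate arrays was small beside the falls. The median size of the difference between the replicates of a group was 0.0759 in ANAC096, 0.113 in Control, 0.0684 in ANAC096+ABA and 0.0416 in ABA. The member with the widest spread was at -9.76 and -7.60 in ANAC096 against -5.71 and -4.39 in Control. Its ANAC096+ABA values were -9.00 and -8.99, against -4.73 and -4.83 in ABA, so its groups did not overlap. None of its 4 ANAC096-line arrays counted as well above background. Wide spread was not confined to dim members: a bright member had 1.28 and 2.23 in ANAC096, against 3.64 and 2.90 in Control. With ABA that bright member had 2.52 and 2.49 in ANAC096+ABA, against 3.96 and 3.34 in ABA.

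The typical member kept 35.1% of its empty-vector signal without ABA and 38.1% with it. The median difference was -1.51 in ANAC096 against Control (2.85-fold lower), with quartiles of -2.09 and -1.29. With ABA the median was -1.39 in ANAC096+ABA against ABA (2.62-fold lower), with quartiles of -1.77 and -1.15. Over all tested probes the corresponding medians were -0.04 and -0.02. The median standard error of a member's difference, from limma, was 0.0706. By limma's adjusted p, 153 members were called lower in ANAC096 against Control, where 32.7% of all tested probes were called lower, and 152 in ANAC096+ABA against ABA, where 22.6% were. The rule used both differences, and nothing is read from these counts.

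Strong falls were few. The signals fell by 2 or more, that is 4-fold, for 44 members in ANAC096 against Control and for 27 in ANAC096+ABA against ABA, and for 21 in both. Members not above background on any array of the lower group have only a lower limit to their fall, and with these members at their limits the counts were 42, 25 and 19. A fall of 3 or more in both was reached by 4 members with limits applied (5 by the signals), 3 of them well above background on all 8 arrays. With limits applied, falls of 2 or more in both comparisons came from 8 of the 51 members with the lowest Control levels (-5.97 to -2.90), 10 of the 51 in the middle (-2.70 to -0.34) and 1 of the 51 with the highest (-0.32 to 4.34). The median differences of these 3 sets of 51 were close in ANAC096 against Control, at -1.58, -1.45 and -1.52, and in ANAC096+ABA against ABA, at -1.53, -1.34 and -1.30.

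A_84_P761415 had the furthest fall among members measured on every array. Its levels were -6.33 and -6.39 in ANAC096, against -0.78 and -0.79 in Control. With ABA they were -5.83 and -5.87 in ANAC096+ABA, against -0.85 and -0.88 in ABA. The 4 arrays of the ANAC096 line lay far below the 4 empty-vector arrays, and replicates differed by under 0.1. The differences were -5.57 without ABA (SE 0.044, 47.7-fold) and -4.98 with ABA (SE 0.044, 31.6-fold), which left 2.1% and 3.17% of the signal. On this probe ABA went with 0.51 more signal in ANAC096+ABA than in ANAC096, and with -0.08 in ABA against Control. With normexp background correction, which raises dim signals, the line differences were -4.52 and -4.22.

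A_84_P11480 was brighter and fell less. Its levels were -3.40 and -3.31 in ANAC096, against 1.08 and 0.98 in Control. They were -3.07 and -2.99 in ANAC096+ABA, against 0.95 and 0.96 in ABA. This probe was thus above the 75th percentile on all empty-vector arrays and well below it on all arrays of the ANAC096 line. The differences were -4.38 without ABA (SE 0.058, 20.9-fold) and -3.99 with ABA (SE 0.058, 15.9-fold).

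All 153 members were well above background on both Control and both ABA arrays, which the level limit favours. On both ANAC096 arrays 142 were, and on both ANAC096+ABA arrays 140 were, so that 138 were measured on all 8 arrays. For 6 members no ANAC096 array was well above background, and for 9 no ANAC096+ABA array was, 5 members being in both counts. Their falls have only a lower limit. It was set against the higher of the probe's own signal and the dimmest signal counted as well above background on that array. That level is lenient: a member at -6.93 and -6.88 on the ANAC096+ABA arrays was not counted. The dimmest signals counted there were -7.399 and -7.375, and a stricter level would give smaller limits. With the level used, the limits were at least 3.51-fold to at least 13.9-fold for the 6. They were at least 1.79-fold to at least 12.1-fold for the 9. The member with the highest limits had levels of -9.34 and -9.56 in ANAC096, against -4.01 and -3.93 in Control. It had -9.26 and -9.18 in ANAC096+ABA, against -3.81 and -3.78 in ABA, and was at least 13.9-fold lower without ABA and at least 12.1-fold lower with it.

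Most probes lower in the ANAC096 line under one condition were not members. Among 31143 probes with a Control level of at least -6, 738 were lower by 1 or more in ANAC096 against Control and 986 in ANAC096+ABA against ABA, and 249 were lower in both. The 153 members made up 20.7% of the first list, 15.5% of the second and 61.4% of the probes common to both. Of the other 96 probes common to both, 46 exceeded the limit on both ABA differences, 23 only the one in the empty-vector line and 27 only the one in the ANAC096 line. Most of these were also lower with ABA: 60 were lower by more than 0.75 in ABA against Control and 9 higher, and 62 were lower in ANAC096+ABA against ANAC096 and 11 higher. The same limits turned to the opposite direction, with the level limit set in ANAC096, gave 345 probes higher in the ANAC096 line. Applied to ABA in place of the line, they gave 58 probes lower and 59 higher with ABA in both lines. Scaled to the E1A spike-ins, control RNA added to each labelling, these counts were 112, 41 and 106, beside 103 for the rule of the members.

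Since the rule limits both ABA differences, it also limits how far the falls of a member without and with ABA can lie apart. Across the 153 members these falls had a Pearson r of 0.85 and a Spearman rho of 0.58, as a description that the rule shapes. The fall was smaller with ABA for 112 members and larger for 41. The difference of the falls, ANAC096+ABA against ABA minus ANAC096 against Control, had a median of 0.20 and ran from -0.96 to 1.22, with a median of 0.05 over all tested probes. At the upper end a member had -1.51 in ANAC096+ABA against ABA and -2.73 in ANAC096 against Control, and at the lower end another had -2.0 and -1.05. By limma 51 members were called higher for this interaction, beside 23.4% of all tested probes, and 17 lower, beside 18.9%. The median interaction was 0.52 among the 51 and -0.54 among the 17. It is made of the differences that chose the members, so nothing is read from these counts.

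Little movement with ABA did not mean none. In ABA against Control the members had a median difference of -0.13 and a range of -0.69 to 0.73, with 101 below 0 and 52 above. In ANAC096+ABA against ANAC096 the median was 0.09 and the range -0.69 to 0.75, with 64 below 0 and 89 above. The most frequent combination was lower in ABA against Control and higher in ANAC096+ABA against ANAC096, in 56 members. Both differences were below 0 in 45 members and both above 0 in 33, and 19 were higher in ABA against Control and lower in ANAC096+ABA against ANAC096. Both lay within 0.25 of 0 for 39 members and within 0.5 for 108. For ABA against Control limma called 51 members lower, beside 28.9% of all tested probes, and 17 higher, beside 18.5%. For ANAC096+ABA against ANAC096 it called 30 lower, beside 23.0%, and 51 higher, beside 22.2%. Both ABA differences were called for 41 members and neither for 45. The rule limits both differences, and nothing is read from these counts.

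Low response to ABA also depended on how the arrays were scaled. The E1A spike-ins had mean levels over their spots of -2.14 and -2.31 in ANAC096, against -2.79 and -2.82 in Control. They were at -2.82 and -2.65 in ANAC096+ABA, against -2.44 and -2.53 in ABA. Spike-ins were thus higher in ANAC096 than in Control and lower in ANAC096+ABA than in ABA. Scaled to them, the median of all tested probes moved by -0.58 in ANAC096 against Control, 0.25 in ANAC096+ABA against ABA, -0.32 in ABA against Control and 0.51 in ANAC096+ABA against ANAC096. This scaling moves every probe by the same amount, so members chosen for falls of 1 or more had to stay lower under both conditions. Their medians became -2.09 without ABA and -1.14 with ABA.

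On the spike-in scale the falls were less equal. The median interaction was 1.03 and 151 members had a smaller fall with ABA, where the median interaction of all tested probes moved by 0.83. The median difference became -0.45 in ABA against Control, with 15 members above 0, and 0.61 in ANAC096+ABA against ANAC096, with 143 above 0. For 53 members the difference in ANAC096+ABA against ANAC096 exceeded 0.75. A fall of 1 or more remained in ANAC096 against Control for 153 members, which the direction of the shift fixed. In ANAC096+ABA against ABA it remained for 88. Only 46 members met every limit on that scale, where 103 probes met them in all. By limma on that scale the interaction was called higher for 139 members, beside 27276 of 34714 tested probes. With only the 7 bright spike-ins it was called higher for 143, beside 28810. ANAC096+ABA against ANAC096 was then called higher for 133 members, beside 28577. The scaling moves every probe alike, so nothing is read from these counts. Which scale is nearer to the RNA content of the seedlings was not tested.

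The rule was also applied to the arrays of 1 replicate number, and the probes it chose were read on the 4 arrays not used. On the replicate 1 arrays alone 144 probes met the rule. On the replicate 2 arrays 143 of these 144 were lower in the ANAC096 line with and without ABA, 125 by 1 or more in both, and 118 met the whole rule. The exception was higher by 0.73 in ANAC096+ABA against ABA. The median differences there were -1.57 in ANAC096 against Control and -1.40 in ANAC096+ABA against ABA. On the replicate 2 arrays alone 172 probes met the rule. On the replicate 1 arrays all 172 were lower in both, 130 by 1 or more in both, and 118 met the whole rule, with median differences of -1.47 and -1.33. One array per group gives no test, and these arrays shared a slide with those that chose the probes. On them, too, slide column and line cannot be told apart, and the replicates may be technical. No share over all probes stands beside these counts, so they are a description and nothing is read from them.

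A pair of spots represented 70 of the 153 members (45.8%), beside 41.4% of all probes. In 63 of these 70 both spots fell by 1 or more in both comparisons, and the median gap between the spots of a member was 0.0695 in ANAC096 against Control and 0.0865 in ANAC096+ABA against ABA. The largest gaps were 1.92 and 1.1, and the averages that met the rule include these spots. The weakest log2 difference of any single spot was -0.96 without ABA and -0.70 with ABA. The 223 spots of the members were spread over the array, with 58, 54, 51 and 60 in its quadrants.

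The limits cut through a continuum. Probes that met all other limits came as close as -1.0056 inside and -0.9908 outside for ANAC096 against Control, and -1.0011 inside and -0.9997 outside for ANAC096+ABA against ABA. Within 0.1 of the limit on ANAC096+ABA against ABA there were 25 members inside and 25 probes outside, and for ANAC096 against Control 15 inside and 16 outside. For the size of the ABA differences, 6 members lay within 0.1 inside and 5 probes outside in ABA against Control, and 7 inside and 6 outside in ANAC096+ABA against ANAC096. The level limit had 3 members within 0.1 inside and 3 probes outside.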

How the data were processed

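RNA of 8 samples was measured on 1-colour (Cy3) Agilent arrays, 2 per group, grouped by sample title. Per the file headers, Feature Extraction 10.7.1.1 (protocol GE1_107_Sep09, array design 031025) gave the deposited intensity values on a linear scale. The authors' deposited table holds log2 values. Quantile normalization of log2 median signals over 62976 spots returned it within 1e-08, so its scale and direction are settled (column medians 10.26 to 10.27). Flags of 0 or 1 in the deposited scanner files mark spots well above background, saturated or outlying.

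Here log2 of the processed signal minus each array's 75th percentile over all spots was averaged over the spots of a probe, 1319 control spots left out. A probe was tested if all its spots were flagged as well above background in both replicates of 1 or more groups (34714 of 43603, 79.6%). Group means were fitted over all 8 arrays with limma 3.58.1 in R 4.3.3 (4 residual degrees of freedom, prior 1.98), with Benjamini-Hochberg adjustment over all tested probes at 0.05. The fit was also run on simulated data with independent noise and few changed probes. Far more probes were called in the measured data, so that run cannot show how reliable these calls are. Standard errors come from this fit, whose precision is limited by having 8 arrays. An alternative with normexp (offset 50) used median signals, as the files hold no mean signals. Levels for the limit of -6 stayed on the 75th percentile scale under spike-in scaling and in the authors' table. The series' design text calls the replicates biological without saying how they were grown, so standard errors and p-values reflect array-to-array spread, which may be technical.

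The members were chosen with earlier results of these data known, and so were the 16 gene lists, which could not be used because no probe is paired with a gene. The naming rule was the 2 members with the furthest fall, ordered by the smaller of their 2 falls, among those well above background on all 8 arrays. Other scalings, limits, filters, a replicate block and leaving out each array were tried.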

Additional observations from a re-analysis of the deposited data

How the results depend on the processing

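On the arrays that chose them, all 153 members stayed lower with and without ABA under every processing below, and nothing is read from this. The number of probes meeting the rule was 145 to 160 when 1 array was left out, 295 with a minimum fall of 0.75 and 46 with 1.5. It was 114 after normexp (101 of them members), 134 in the authors' deposited values (119 members) and 165 after quantile normalization (144 members). With spike-ins it was 103 (46 members), and 82 (29 members) with only the 7 bright ones, well above background on all arrays, a setting chosen after seeing the data. After normexp 102 members kept both falls of 1 or more.

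The median difference in ANAC096 against Control was -2.09 with spike-ins, -2.13 with bright spike-ins, -1.59 with quantile normalization, -1.30 with normexp and -1.39 in the authors' table. In ANAC096+ABA against ABA these were -1.14, -1.03, -1.37, -1.21 and -1.22. In ABA against Control the median was -0.45 with spike-ins and -0.40 with bright ones. In ANAC096+ABA against ANAC096 it was 0.61 with spike-ins, 0.81 with bright ones, 0.17 with quantile normalization and -0.02 with normexp, which turned its sign. The interaction was 1.03, 1.18, 0.30 and 0.06 under the same settings. Leaving out 1 array gave -1.53 to -1.5, -1.40 to -1.35, -0.14 to -0.10, 0.09 to 0.12 and 0.17 to 0.22 for these 5 medians.

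Members called by limma numbered 152 to 153 in ANAC096 against Control and 151 to 153 in ANAC096+ABA against ABA when 1 array was left out. In ABA against Control they numbered 42 to 70 (68 on all arrays): 43 without ABA replicate 1 and 42 without ABA replicate 2. In ANAC096+ABA against ANAC096 they numbered 52 to 84 (81 on all arrays): 52 without ANAC096+ABA replicate 1 and 133 with bright spike-ins. The interaction was called for 46 to 65 (68 on all arrays), for 139 with spike-ins and 143 with bright ones. At the named settings calls over all probes fell or rose alike. The cause was not tested.

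Same-numbered arrays of different groups did not deviate together (r -0.0809 to 0.061). This cannot show whether same-numbered samples were grown or handled together, so their pairing is unknown. With the replicate block 153, 152, 65, 80 and 67 members were called, in the order listed above. Over all tested probes 11053, 7450, 9459, 7525 and 6194 were called lower and 9020, 7321, 6152, 7265 and 7471 higher. Nothing is read from these counts. Dim signals limit the falls of 10 members.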
